A study of Mus musculus with 8 samples.

Results

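Sox17, Sox7, Gata4, Gata6, Hnf4a, Afp, Ttr and Cxcr4 are 8 mouse genes used as markers of the endoderm lineage, and their RNA was followed here through an immunoprecipitation (IP) of the germ cell protein DAZL. The members were all non-control probes whose gene name on the array equals any of these symbols. This gave 18 of the 41174 probes of genes on the array. Of these, 11 were kept as bright enough to test, and they cover 7 of the 8 genes among 19032 genes tested. Ttr had no such probe and is described by its signal alone.

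Endoderm is the germ layer that gives rise to the gut tube, liver, pancreas and lung, and in the mouse embryo an extraembryonic endoderm also forms the yolk sac. SOX17, SOX7, GATA4 and GATA6 are transcription factors that switch on endoderm genes, HNF4A drives later liver and yolk sac programmes, and AFP and TTR are plasma proteins secreted by yolk sac and fetal liver. DAZL binds messenger RNA in germ cells, mostly in the part after the coding sequence, and controls its translation.

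RNA was measured on 8 one-colour Agilent mouse arrays, with 2 arrays in each of 4 groups. These were an IP with an antibody against the V5 tag (anti-V5 IP, shown as V5 IP in the plots), an IP with an antibody against GFP (anti-GFP IP, shown as GFP IP), a mock IP with normal mouse IgG, and total input RNA without IP. All groups shared the same cells, which were V6.5 mouse embryonic stem cells of a mixed C57BL/6 129SV background carrying DAZL fused to GFP and V5, differentiated for 12 days and labelled as primordial germ cells made in culture. Lysates were not crosslinked with ultraviolet light, and the number of clones and the promoter of the fusion are not given in the sources used here. The labels' design text calls the V5 and GFP IPs independent experiments, but whether replicates 1 and 2 came from separate cultures is not given, so p-values measure the spread between arrays, which may be technical in part.

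The labelled cell type was checked first. Of 10 germ cell genes listed, 9 were measured, and all 9 were well above background on both input arrays. This does not set the germ cell label apart, since 70.5% and 67.4% of all probes passed there. All genes on the array also passed in the extraembryonic endoderm (19 of 19), Nodal pathway (13 of 13), epithelial (6 of 6) and pluripotency (6 of 6) lists. Fewer did among endoderm regulators (13 of 20), hepatic secretory (14 of 16), endothelial and blood (6 of 8), cardiac (7 of 9) and neural genes (4 of 5). Dazl mRNA itself rose 6.16-fold in anti-V5 IP (adjusted p = 0.00513) and 6.55-fold in anti-GFP IP (adjusted p = 0.00392) over mock IP. Over input it was 2.43-fold higher in anti-V5 IP (adjusted p = 0.0441) and 2.58-fold higher in anti-GFP IP (adjusted p = 0.0312), and mock IP lay 2.53-fold below input, which did not pass (adjusted p = 0.064). Whether the Dazl probe also reads the transcript of the tagged fusion is not known, and these values may hold both. Slide 1 held replicate 1 of the 4 groups and slide 2 held replicate 2, with the groups in an unchanged order of positions, so position and group cannot be told apart. Mock 1 stood apart from the other arrays: its 75th percentile of processed intensity was 363, against 665 to 1170 on all arrays but the mock ones and 791 on mock 2, and it had the highest score on the second principal component (96.3, with the other arrays between -52.4 and 22.1). Levels below are log2 processed intensity with the 75th percentile of the array taken off, so a level of 0 is that percentile, and a fold compares a gene's place among all RNA of an array, not an amount recovered. On this scale the median gene had a log2 fold change of -0.45 in anti-V5 IP and -0.44 in anti-GFP IP against mock IP, -0.13 in both IPs relative to input, and 0.19 for mock IP relative to input. A call means an adjusted p under 0.05 in limma over all 19032 genes. For a low level in input, fewer cells of a type and less RNA per cell cannot be told apart.

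Cxcr4 and Sox7 were the 2 of 7 tested members that were called higher with both tag antibodies than in mock IP. Cxcr4, a receptor gene, was 3.11-fold higher in anti-V5 IP and 3.59-fold higher in anti-GFP IP, and Sox7, a transcription factor gene, was 2.0-fold and 2.08-fold higher. Both IPs were set against the same mock arrays here, and against the same input arrays below. Deviations of same-numbered V5 and GFP arrays also correlated (r = 0.78), so the folds of the 2 IPs are not independent of each other. The Sox7 folds are uncertain, since its probe was not well above background on mock 1 and the V5 difference turned to -0.12 with normexp background correction. No member was called lower than in mock IP, but with the slide as a block Afp was lower in both IPs (adjusted p = 0.0122 in anti-V5 IP and 0.00649 in anti-GFP IP). The block called many genes lower, 7376 of 19032 in anti-V5 IP and 7644 in anti-GFP IP. Over all genes without the block, 14.5% were called higher and 21.7% lower in anti-V5 IP, and 16.3% higher and 26.5% lower in anti-GFP IP. Scaling changes the split of these calls: with each array centred on the median of the tested genes, 2833 genes were higher and 1557 lower in anti-V5 IP, in place of 2767 and 4136, and 3351 and 2873 in anti-GFP IP, in place of 3103 and 5049. With normexp background correction it was 950 and 10 in anti-V5 IP, and 1182 and 467 in anti-GFP IP, and in the authors' deposited table the split was 3057 and 1520 in anti-V5 IP, and 3516 and 2795 in anti-GFP IP.

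Against input, 1 of 7 tested members was called higher (Cxcr4) and 1 lower (Afp), with either antibody. Cxcr4 was 4.2-fold higher in anti-V5 IP and 4.85-fold higher in anti-GFP IP. Afp, a plasma protein gene, was 7.27-fold lower in anti-V5 IP and 8.03-fold lower in anti-GFP IP. Over all genes, 13.9% were called higher and 14.3% lower in anti-V5 IP, and 15.8% higher and 17.2% lower in anti-GFP IP. In mock IP against input, 0 of 7 members were called by limma, where 6.41% of all genes were called higher and 4.23% lower, and 1 member (Afp) had an unadjusted p under 0.05. Between anti-V5 IP and anti-GFP IP, 0 of 7 members were called and 0 had an unadjusted p under 0.05. The share of all genes called there was 0% in each direction, with 188 genes at an unadjusted p under 0.05.

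**Figure D1:**
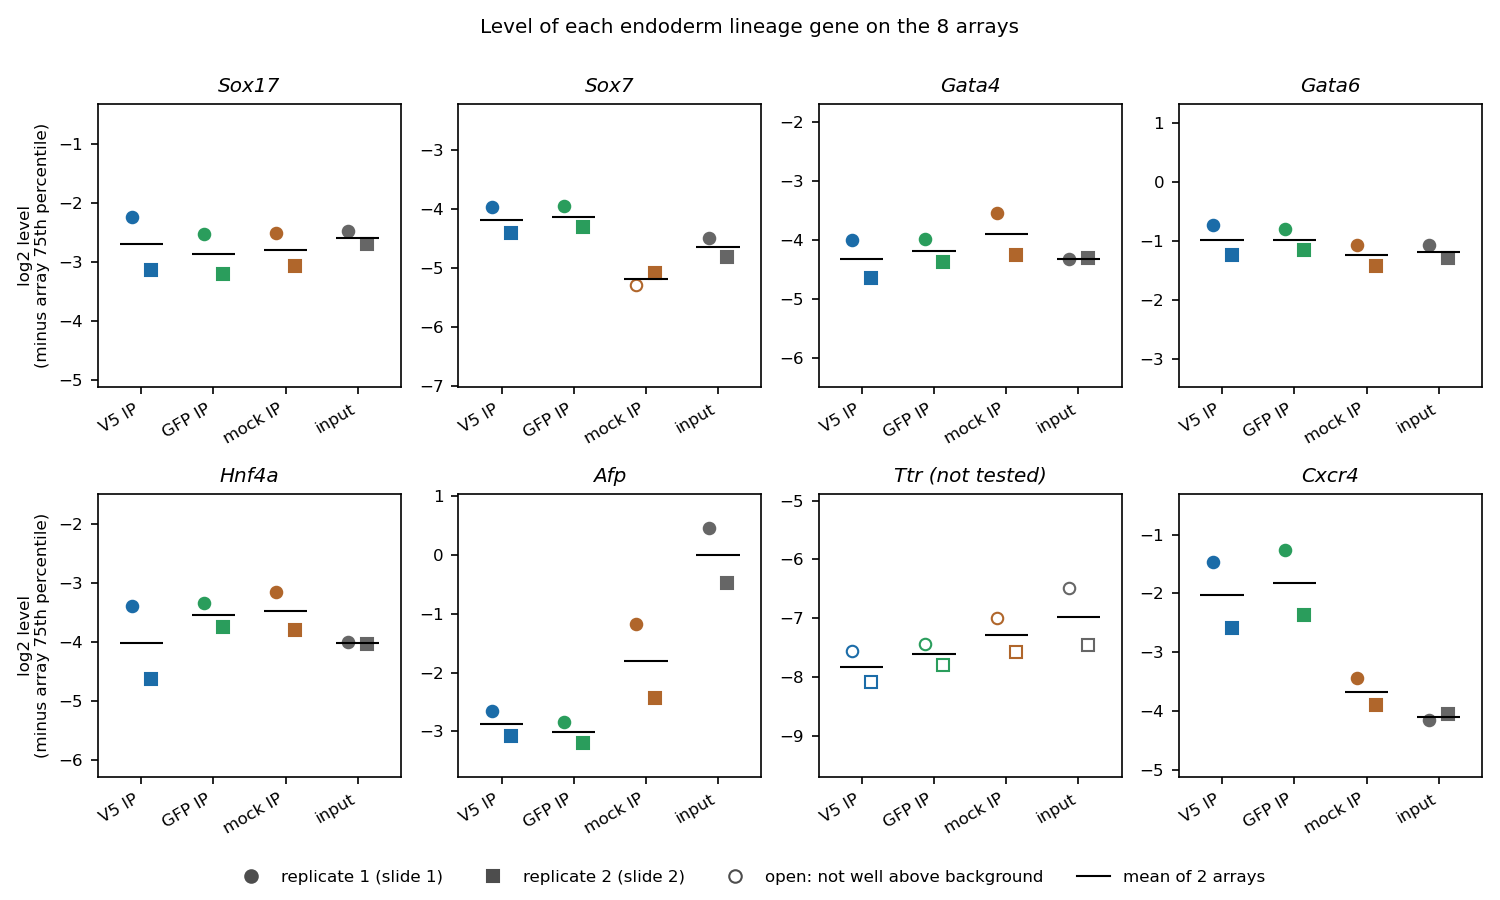
Level of each member on the 8 arrays, as log2 processed intensity scaled to the 75th percentile of its array, for anti-V5 IP, anti-GFP IP, mock IP and input. Circles are replicate 1, squares replicate 2, open symbols arrays where the probe was not well above background, and bars the mean of 2 arrays; the vertical axes differ between panels but span the same number of log2 units. Cxcr4 lay at or above -2.58 on the V5 and GFP arrays and at or below -3.43 on the mock and input arrays, and Ttr was open on all 8 arrays.

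Cxcr4 encodes the receptor of the chemokine CXCL12, is used to sort definitive endoderm from stem cell cultures, and is also carried by migrating primordial germ cells. Its 2 probes were well above background on all 8 arrays. The brighter probe, A_52_P585124, had processed intensities of 243 and 195 in anti-V5 IP and 276 and 215 in anti-GFP IP, against 33.7 and 53.0 in mock IP and 56.1 and 67.5 in input. As levels, these were -1.47 and -2.58 in anti-V5 IP, -1.27 and -2.37 in anti-GFP IP, -3.43 and -3.90 in mock IP, and -4.15 and -4.04 in input. Every V5 and GFP array therefore lay above every mock and input array, and the V5 and GFP arrays overlapped. The order of the mean levels was anti-GFP IP, anti-V5 IP, mock IP and input.

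The Cxcr4 log2 fold change over mock IP was 1.64 ± 0.47 (SE) in anti-V5 IP (95% confidence interval 0.54 to 2.73, adjusted p = 0.0338) and 1.85 ± 0.47 in anti-GFP IP (0.75 to 2.94, adjusted p = 0.0200). Within slides, Cxcr4 lay 1.96 above mock IP on slide 1 and 1.31 on slide 2 in anti-V5 IP, and 2.16 and 1.53 above it in anti-GFP IP. Over input it was 2.07 ± 0.47 in anti-V5 IP (adjusted p = 0.0172) and 2.28 ± 0.47 in anti-GFP IP (adjusted p = 0.0103). Mock IP and input, the neighbours at the low end of the order, differed by 0.43 ± 0.47, with an interval of -0.66 to 1.53 (adjusted p = 0.541). The difference between anti-V5 IP and anti-GFP IP was -0.21 ± 0.47 (interval -1.30 to 0.89).

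The Cxcr4 calls rested on few arrays. Against mock IP in anti-V5 IP the call was lost without V5 1 (log2 1.08), without either mock array or without either input array (adjusted p between 0.0637 and 0.153), and in anti-GFP IP without GFP 1, mock 1 or mock 2 (adjusted p between 0.0729 and 0.103). Against input it was lost without V5 1 or either input array in anti-V5 IP (adjusted p between 0.083 and 0.0995), and without GFP 1 or either input array in anti-GFP IP (between 0.0566 and 0.0671). With normexp background correction Cxcr4 stayed positive but was not called, at 0.81 in anti-V5 IP and 1.25 in anti-GFP IP (adjusted p = 0.455 and 0.232, the highest over 17 alternatives, whose lowest were 0.00678 and 0.00338).

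The second Cxcr4 probe, A_52_P565353, was tested with all kept probes. Its processed intensities were 156 and 120 in anti-V5 IP, 188 and 127 in anti-GFP IP, 21.6 and 36.2 in mock IP, and 66.4 and 69.7 in input. Here too every V5 and GFP array lay above every mock and input array on the scaled level. Its log2 fold change was 1.79 ± 0.51 in anti-GFP IP over mock IP, which passed (adjusted p = 0.0312, where 17.1% of all kept probes were called higher), and 1.56 ± 0.51 in anti-V5 IP over mock IP, which did not (adjusted p = 0.0526, where 15.3% were). Over input it was 1.25 ± 0.51 in anti-V5 IP (adjusted p = 0.109) and 1.48 ± 0.51 in anti-GFP IP (adjusted p = 0.0636), which did not pass (13.7% and 15.4% of kept probes were called higher there). With the slide as a block all 3 of these passed, at an adjusted p of 0.00989 in anti-V5 IP over mock IP, 0.0185 in anti-V5 IP over input and 0.00888 in anti-GFP IP over input. Counted over genes, the block gave 3677 of 19032 higher in anti-V5 IP over mock IP. Over input it gave 3779 higher in anti-V5 IP and 4101 in anti-GFP IP. Both probes thus lay higher in both IPs than in either control, while mock IP lay above input by the first probe (0.43) and below it by the second (-0.31), with neither passing.

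**Figure D2:**
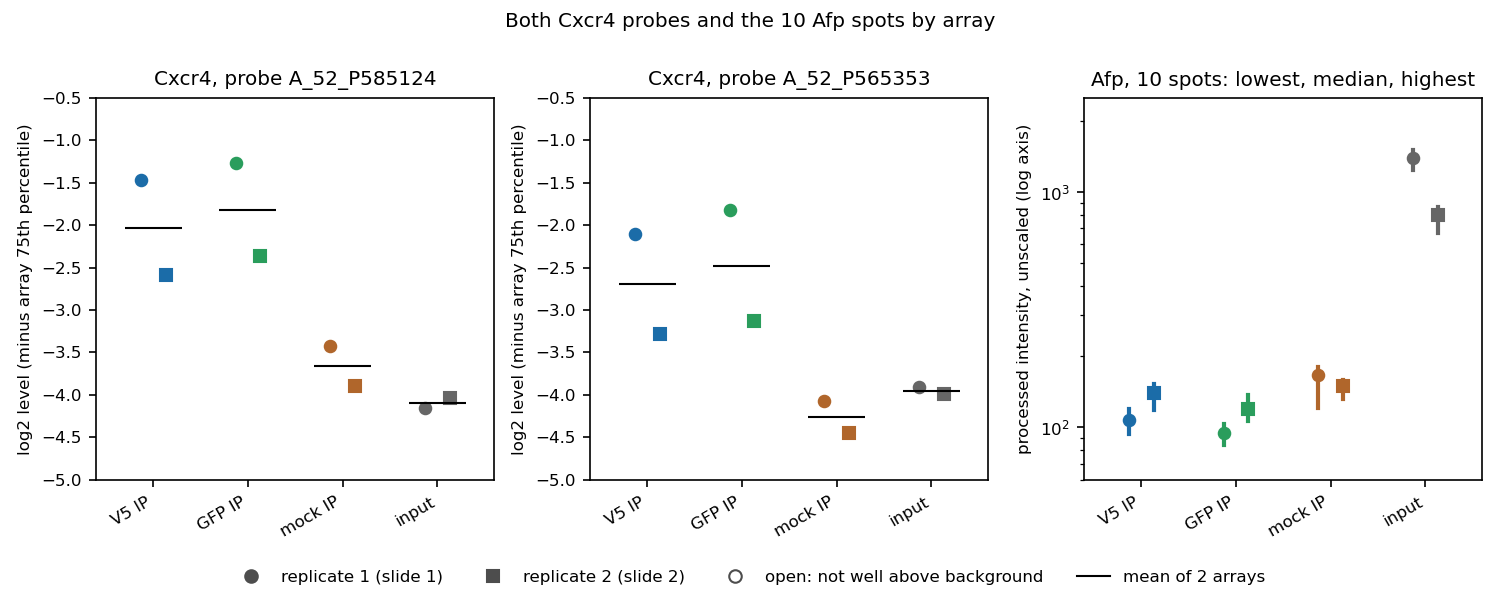
Both Cxcr4 probes as log2 level by array (left and middle, with bars for the mean of 2 arrays) and the 10 Afp spots as unscaled processed intensity on a log axis (right, with a vertical line from the lowest to the highest spot and a symbol at the median). On both Cxcr4 probes the 4 V5 and GFP arrays lie above the 4 mock and input arrays, and the Afp spot medians lie at or below 168 on the 6 IP arrays and at 1395 and 800 on the input arrays.

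Afp, the gene of alpha-fetoprotein, was by contrast a member with high signal in input and low signal in all 3 IPs. It is measured by 1 probe that is printed in 10 spots, all of them well above background on all 8 arrays. The averaged processed intensities were 107 and 138 in anti-V5 IP, 93.3 and 121 in anti-GFP IP, 161 and 147 in mock IP, and 1372 and 797 in input. The spots of an array agreed closely: the lowest and highest were 94.2 and 120 on V5 1, 84.5 and 103 on GFP 1, 121 and 181 on mock 1, and 1240 and 1510 on input 1. Before scaling, every spot of an IP array read below the lowest input spot, which read 670 on input 2. The arrays differ in brightness, with a 75th percentile of 363 on mock 1 and 1110 on input 2. Once scaled, these 2 arrays lay closer, at -1.17 on mock 1 and -0.48 on input 2.

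As levels, Afp had -2.66 and -3.08 in anti-V5 IP, -2.83 and -3.20 in anti-GFP IP, -1.17 and -2.43 in mock IP, and 0.46 and -0.48 in input. The log2 fold change against input was -2.86 ± 0.48 in anti-V5 IP (interval -3.97 to -1.75, adjusted p = 0.00588) and -3.00 ± 0.48 in anti-GFP IP (interval -4.11 to -1.90, adjusted p = 0.00427). The V5 call against input was lost without input 1 (-2.39, adjusted p = 0.0518). Afp in mock IP was also below input, by -1.79 ± 0.48 (interval -2.90 to -0.68), short of a call (adjusted p = 0.0532), and was called once the slide was a block (adjusted p = 0.0054). The block gave 2595 of 19032 genes lower in mock IP against input. All 3 comparisons of Afp with input share the input arrays.

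Against mock IP the Afp levels did not overlap, but the fit did not call them. The log2 fold change was -1.07 ± 0.48 in anti-V5 IP (interval -2.18 to 0.04, adjusted p = 0.108) and -1.21 ± 0.48 in anti-GFP IP (interval -2.32 to -0.11, adjusted p = 0.0724). With the slide as a block both passed, at 0.0122 in anti-V5 IP and 0.00649 in anti-GFP IP. A lower call is common with the block, which gave 7376 of 19032 genes lower in anti-V5 IP and 7644 in anti-GFP IP. The size depended on mock 1: without it Afp lay at -0.44 in anti-V5 IP and -0.59 in anti-GFP IP (adjusted p = 0.486 and 0.357), and without mock 2 at -1.70 and -1.84 (adjusted p = 0.0346 and 0.026). Relative to the median of all genes, which was -0.45 and -0.44 in these comparisons, the Afp shift was smaller than against 0.

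Ttr, the gene of transthyretin, was not well above background on any array. Its single probe read 3.58 and 4.30 in anti-V5 IP, 3.86 and 4.99 in anti-GFP IP, 2.83 and 4.15 in mock IP, and 11.1 and 6.35 in input. The input arrays gave the highest readings, but at this signal no difference was detectable and none was tested.

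Sox7 belongs to the same SOX subgroup as Sox17 and is expressed in extraembryonic endoderm and in endothelium. Of its 2 probes, A_51_P476018 was kept. It read 43.2 and 55.1 in anti-V5 IP and 43.2 and 56.1 in anti-GFP IP, against 9.32 and 23.4 in mock IP and 44.7 and 39.6 in input. Of the mock arrays only mock 2 had it well above background, as did all V5, GFP and input arrays, so the mock level is near the floor of the array.

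The Sox7 levels were -3.96 and -4.41 in anti-V5 IP, -3.94 and -4.31 in anti-GFP IP, -5.28 and -5.08 in mock IP, and -4.48 and -4.81 in input. Both DAZL IPs lay above input, and input above mock IP, with no overlap between these, while anti-V5 IP and anti-GFP IP overlapped. Sox7 rose by 1.0 ± 0.27 in anti-V5 IP (interval 0.36 to 1.64, adjusted p = 0.0307) and by 1.06 ± 0.27 in anti-GFP IP (interval 0.42 to 1.70, adjusted p = 0.0211) over mock IP. It did not pass over input, with 0.46 ± 0.27 in anti-V5 IP (adjusted p = 0.248) and 0.52 ± 0.27 in anti-GFP IP (adjusted p = 0.184), and mock IP lay at -0.54 ± 0.27 against input (adjusted p = 0.211). The calls over mock IP were lost without V5 1 (adjusted p = 0.153) or GFP 1 (adjusted p = 0.126) in their own comparison and in both comparisons without mock 1 (adjusted p = 0.116 in anti-V5 IP and 0.0868 in anti-GFP IP), and without either input array in anti-V5 IP (adjusted p = 0.0634). With normexp background correction the V5 difference turned to -0.12 and the GFP difference was 0.54 (adjusted p = 0.905 and 0.784). The other Sox7 probe was below background on all 8 arrays.

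Sox17, a master regulator of definitive endoderm that also takes part in human germ cell specification, showed no called difference. Its brighter kept probe, A_51_P273667, was well above background on all arrays and read 143 and 132 in anti-V5 IP, 115 and 120 in anti-GFP IP, 63.3 and 93.8 in mock IP, and 179 and 171 in input. As levels these were -2.23 and -3.15 in anti-V5 IP, -2.53 and -3.21 in anti-GFP IP, -2.52 and -3.08 in mock IP, and -2.48 and -2.70 in input, so all groups overlapped. Against mock IP the log2 difference was 0.11 in anti-V5 IP (interval -0.80 to 1.02) and -0.07 in anti-GFP IP (interval -0.98 to 0.84), and against input -0.10 and -0.28. The second kept probe, A_52_P279368, lay at -0.02 in anti-V5 IP and -0.16 in anti-GFP IP against mock IP, and the 2 remaining probes were below background everywhere.

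Gata6 and Gata4 are zinc finger factors of primitive endoderm and of the heart. Gata6 read 407 and 497 in anti-V5 IP, 382 and 499 in anti-GFP IP, 173 and 297 in mock IP, and 475 and 456 in input with its probe A_51_P411917. Its levels were -0.73 and -1.24 in anti-V5 IP, -0.80 and -1.15 in anti-GFP IP, -1.07 and -1.41 in mock IP, and -1.07 and -1.28 in input, which overlap between all groups. The difference from mock IP was 0.26 in anti-V5 IP (interval -0.40 to 0.92, adjusted p = 0.477) and 0.26 in anti-GFP IP (interval -0.39 to 0.92, adjusted p = 0.467). A dimmer Gata6 probe, A_52_P590175, gave -0.75 and -0.69 in the same comparisons (adjusted p = 0.201 and 0.225), so the 2 kept probes of the gene differ in sign.

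Gata4 had 1 kept probe, A_51_P492355, which read 42.0 and 47.0 in anti-V5 IP, 42.0 and 53.5 in anti-GFP IP, 31.2 and 41.3 in mock IP, and 49.8 and 55.9 in input. The Gata4 levels were -4.00 and -4.64 in anti-V5 IP, -3.98 and -4.37 in anti-GFP IP, -3.54 and -4.26 in mock IP, and -4.32 and -4.31 in input. The groups overlapped in each IP comparison, with differences from mock IP of -0.42 in anti-V5 IP (interval -1.21 to 0.37) and -0.28 in anti-GFP IP (interval -1.07 to 0.51). The other Gata4 probe is printed in 10 spots, of which at most 1 was well above background on any array.

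Hnf4a encodes a nuclear receptor of visceral endoderm and liver. Its probe A_51_P198473 read 63.9 and 47.5 in anti-V5 IP, 65.9 and 82.4 in anti-GFP IP, 40.8 and 56.7 in mock IP, and 62.4 and 67.9 in input. As levels these were -3.40 and -4.62 in anti-V5 IP, -3.34 and -3.75 in anti-GFP IP, -3.15 and -3.80 in mock IP, and -4.00 and -4.03 in input. On this probe the 2 V5 arrays were farther apart than the replicates of any other group, and against mock IP the difference was -0.53 in anti-V5 IP (interval -1.53 to 0.46) and -0.07 in anti-GFP IP (interval -1.06 to 0.93).

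A second Hnf4a probe, A_52_P683991, could not be told from background in mock IP and read 19.2 and 19.5 in anti-V5 IP, 27.6 and 18.8 in anti-GFP IP, 7.82 and 4.49 in mock IP, and 35.2 and 28.4 in input. By the group means it was at least 1.05-fold higher in anti-V5 IP and at least 1.28-fold higher in anti-GFP IP than in mock IP. These bounds take the lowest signal well above background as the mock level. They are not firm, since GFP 2 was itself not well above background and the scaled levels overlapped. V5 2 (-5.91) and GFP 2 (-5.88) lay below mock 1 (-5.54). Neither difference passed (adjusted p = 0.284 and 0.173), but both did with the slide as a block (adjusted p = 0.0453 and 0.0175). In mock IP against input this probe was at least 1.45-fold lower, again passing only with the block (adjusted p = 0.183 without and 0.0198 with it). Counted over 19032 genes, the block gave 3677 higher in anti-V5 IP and 3965 in anti-GFP IP over mock IP, and 2595 lower in mock IP against input. The 2 kept Hnf4a probes therefore differ in sign against mock IP, and the third was below background on all arrays.

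**Figure D3:**
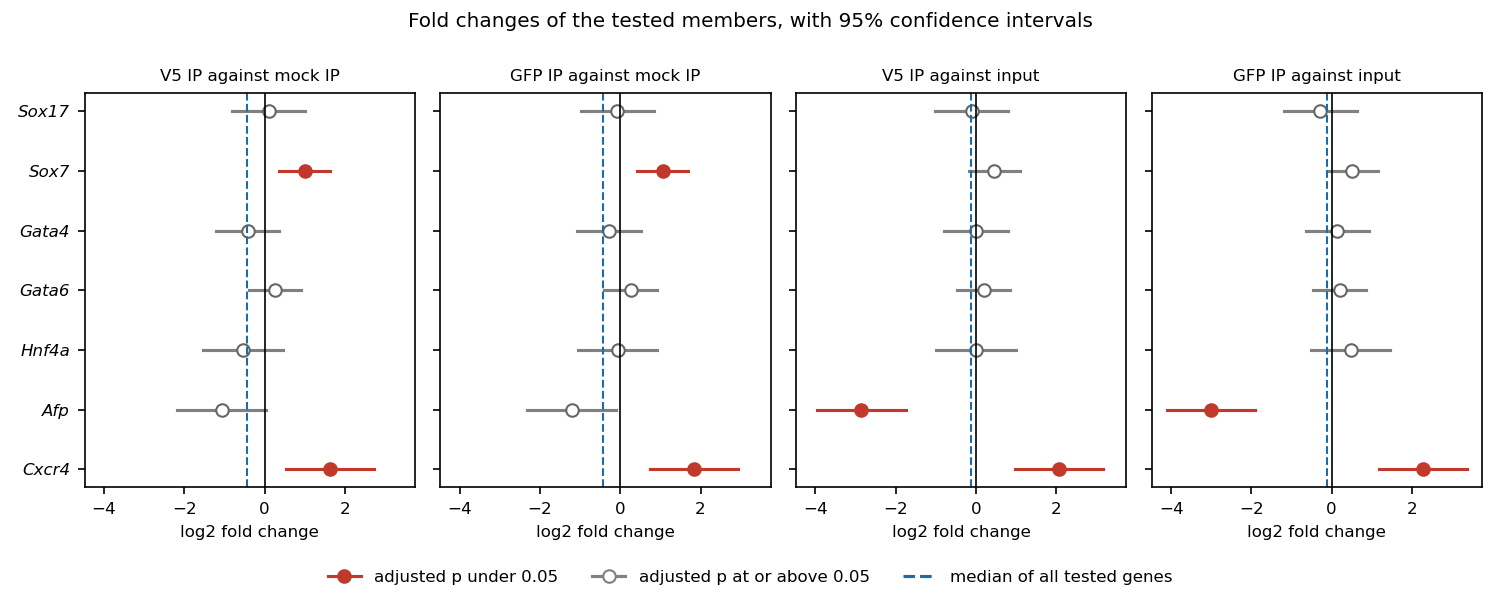
Log2 fold change of the 7 tested members with its 95% confidence interval in anti-V5 IP and anti-GFP IP against mock IP and against input. Red marks an adjusted p under 0.05 over all tested genes and the dashed line is the median of all tested genes. Cxcr4 is red and positive in all 4 panels, Sox7 in the 2 against mock IP (2.0-fold and 2.08-fold), and Afp is red and negative in the 2 against input (7.27-fold and 8.03-fold lower).

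The 2 antibodies gave like values for the members, as far as 2 arrays a group can show. The difference between anti-V5 IP and anti-GFP IP lay between -0.47 (Hnf4a, interval -1.46 to 0.53) and 0.18 (Sox17, interval -0.73 to 1.09) over the 7 tested members. For Sox7 it was -0.06 (interval -0.70 to 0.58) and for Gata6 0.00 (interval -0.66 to 0.65). The intervals are wide enough that differences of this size between the antibodies cannot be told from none.

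Over the 7 tested members the median log2 difference from mock IP was 0.11 in anti-V5 IP and -0.07 in anti-GFP IP, against -0.45 and -0.44 over all genes. Against input the members' median was 0.01 in anti-V5 IP and 0.20 in anti-GFP IP, against -0.13 in both over all genes. The members did not move together: in both IPs Cxcr4 lay highest and Afp lowest of them in each of these comparisons.

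Genes of the same lineage were read beside the members. Of 20 endoderm regulators, 14 were tested, and 2 were called higher and 0 lower than in mock IP in either IP, with a median of -0.35 in anti-V5 IP and -0.24 in anti-GFP IP. The count of 2 higher is near the share of all genes called higher, 14.5% in anti-V5 IP and 16.3% in anti-GFP IP. The shares of all genes called lower were 21.7% and 26.5%. Foxa1, a forkhead factor that opens chromatin at endoderm genes, failed to rise well above background in mock IP. It was at least 4.80-fold higher in anti-V5 IP and at least 4.93-fold higher in anti-GFP IP. Both Foxa1 calls were lost with normexp background correction (adjusted p = 0.635 and 0.471). Input lay at the mock level (log2 difference 0.0013), so Foxa1 passed the brightness filter only through the IPs where it was high. Its place among the 2 higher regulators is therefore not independent of that filter. Hhex, a homeobox factor of anterior endoderm, was 4.42-fold and 4.61-fold higher (adjusted p = 0.0120 and 0.00873), and was not called without mock 1 (adjusted p = 0.0713 and 0.0502) or without the first array of its own IP (adjusted p = 0.0586 and 0.052). At the other end Gsc lay at -1.0 in anti-V5 IP and -1.03 in anti-GFP IP, and did not pass (adjusted p = 0.0672 and 0.0574). With the slide as a block 3 regulators were higher in either IP, and 4 were lower in anti-V5 IP and 3 in anti-GFP IP. Over all 19032 genes the block gave 3677 higher and 7376 lower in anti-V5 IP, and 3965 and 7644 in anti-GFP IP.

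The Nodal pathway, whose ligand specifies endoderm and mesoderm, had 2 of 13 tested genes higher and 1 lower than in mock IP in either IP. Here too the count of 2 higher is near the share over all genes, 14.5% in anti-V5 IP and 16.3% in anti-GFP IP, while 21.7% and 26.5% were lower. Smad4, the common mediator of the pathway, was 2.44-fold higher in anti-V5 IP and 2.38-fold higher in anti-GFP IP, and Lefty2, a secreted inhibitor, 2.07-fold and 2.44-fold higher. Lefty1, the related inhibitor, was 1.98-fold lower in anti-V5 IP and 2.06-fold lower in anti-GFP IP. The ligand of Cxcr4, Cxcl12, and its scavenger receptor Ackr3 were both called higher in anti-GFP IP (1.61-fold and 2.07-fold), while in anti-V5 IP Cxcl12 lay at 0.01 (adjusted p = 0.979) and Ackr3 at 0.94 (adjusted p = 0.0553), and that difference between the antibodies did not pass for either gene. The GFP call of Cxcl12 was lost under 12 of 17 alternatives, among them each fit without 1 of the 8 arrays, and its log2 value was 0.16 with the mean of all its kept probes. The GFP call of Ackr3 was lost under 8 of 17. In the Nodal pathway the calls of Smad4 were lost under 8 of 17 alternatives in anti-V5 IP and 7 in anti-GFP IP, those of Lefty2 under 8 and 4, and those of Lefty1 under 9 and 4.

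Hepatic and extraembryonic endoderm genes were read beside Afp and Ttr. Of 14 tested hepatic secretory genes, the class to which Afp and Ttr belong, 0 were higher and 2 lower than in mock IP in anti-V5 IP and 0 and 5 in anti-GFP IP, with medians of -0.74 and -0.95 beside -0.45 and -0.44 over all genes. Apoc1 was 2.74-fold lower in anti-V5 IP and 3.23-fold lower in anti-GFP IP, and Apom, another apolipoprotein gene, 2.20-fold and 2.44-fold lower. Against input, 4 of the 14 were lower in anti-V5 IP, 8 in anti-GFP IP and 1 in mock IP. The summed scaled signal of the list was 91.5 and 72.0 in anti-V5 IP and 77.6 and 64.1 in anti-GFP IP, against 322 and 133 in mock IP and 218 and 161 in input. Such a sum, here and below, is linear, so bright genes weigh most in it. Apoc1 had a mean level of 6.33 in mock IP and 4.88 in anti-V5 IP. The median log2 difference of the list between mock IP and input was -0.38. Albumin (Alb), the best known member of the list, was not well above background. Of 19 tested extraembryonic endoderm genes 6 were lower and 0 higher in either IP than in mock IP, among them Pth1r (2.0-fold lower in anti-V5 IP and 2.21-fold in anti-GFP IP) and Lama1 (1.84-fold and 2.06-fold). Over 17 alternatives the calls of Apoc1 were lost under 7 in anti-V5 IP and 1 in anti-GFP IP, those of Apom under 10 and 4, those of Pth1r under 10 and 3, and those of Lama1 under 12 and 6. Against mock IP the counts of lower genes in both lists stand beside 21.7% of all genes lower in anti-V5 IP and 26.5% in anti-GFP IP. Neither list is set apart by its count of lower genes there. The counts of 0 higher in both lists stand beside 14.5% of all genes higher in anti-V5 IP and 16.3% in anti-GFP IP. The hepatic counts against input stand beside lower shares of all genes, 14.3% in anti-V5 IP, 17.2% in anti-GFP IP and 4.23% in mock IP. With each array centred on the median, 0 of the 19 extraembryonic endoderm genes were lower than in mock IP in anti-V5 IP and 2 in anti-GFP IP. Of the 14 hepatic genes 1 and 2 were lower, and of all 19032 genes 1557 and 2873. Blocking by slide gave 11 and 10 lower extraembryonic endoderm genes, and 7 and 8 lower hepatic genes. These block counts stand beside 7376 and 7644 of all 19032 genes lower with the block.

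Marker lists of other cell types also moved in both directions beside Cxcr4, Sox7 and Afp. The counts in this paragraph stand beside 14.5% of all genes higher and 21.7% lower in anti-V5 IP than in mock IP, and 16.3% and 26.5% in anti-GFP IP. Against mock IP, 4 of 9 germ cell genes were higher and 2 lower, and 3 of 6 pluripotency genes were higher and 0 lower, in either IP. Of 6 endothelial and blood genes, a class that also expresses Sox7, Sox17 and Cxcr4, 2 were higher (Pecam1, 4.40-fold in anti-V5 IP and 5.43-fold in anti-GFP IP, and Tek, 2.53-fold and 2.87-fold) and 1 lower (Cdh5, 2.11-fold and 1.90-fold). With the mean of all kept probes Tek was not called, at a log2 of 0.26 in anti-V5 IP and 0.42 in anti-GFP IP, and Cdh5 was not called in either IP with each array centred on the median or in the authors' deposited table. The summed scaled signal of the endothelial and blood list was 5.47 and 3.45 in anti-V5 IP and 6.16 and 4.09 in anti-GFP IP, against 3.78 and 3.04 in mock IP and 2.43 and 2.36 in input. Ptprc and Tie1 of this list were not well above background. Of 8 cardiac genes, a class that shares Gata4 and Gata6, 0 were higher, and 2 were lower in anti-V5 IP and 3 in anti-GFP IP. Of 6 epithelial genes 1 was higher and 4 lower in either IP, and of 4 neural genes 1 was higher and 1 lower. Over all lists other than the members, those of the paragraphs above included, named genes had 52 calls in both IPs against mock IP. Of these, 40 were lost when some array of the 8 was left out, and in 0 of them did the direction turn. The part that these other cell types have in the members' values was not tested.

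**Figure D4:**
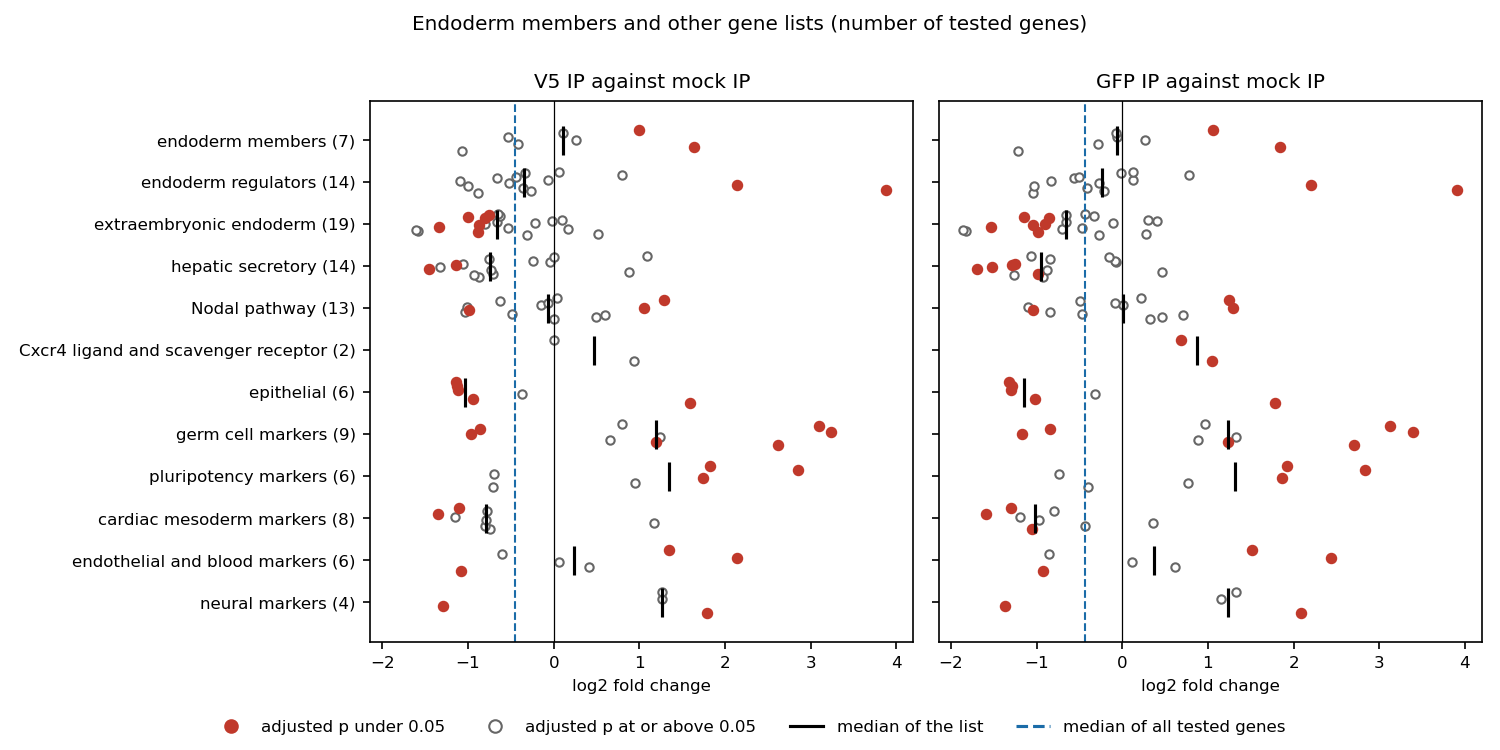
Log2 fold change of each tested gene in 12 lists in anti-V5 IP (left) and anti-GFP IP (right) against mock IP, with the number of tested genes beside each list name, red for an adjusted p under 0.05, a black bar at the list's median and a dashed line at the median of all tested genes. Foxa1, the rightmost point of the endoderm regulators, is drawn at its fitted value although only the bounds of 4.80-fold and 4.93-fold can be stated, and the hepatic secretory medians (-0.74 and -0.95) lie left of the dashed line.

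Genes whose level followed that of a member over the 8 arrays were ranked by Pearson correlation, which is a description with no test, since the arrays share slides, scaling and the same 4 groups. Among 15277 named candidates, Poldip3, Sephs2 and Plpp3 were most like Cxcr4 (r = 0.998 for each), and 11.1% of all candidates had an r over 0.9 with it. Pcmt1 (r = 0.999), Ephx2 (r = 0.997) and Gsta4 (r = 0.995) were most like Afp, where 4.42% of candidates passed 0.9. For Sox7 they were Cep43, B3galt1 and Ripk2 (r = 0.992, 0.992 and 0.991), with 5.94% past 0.9.

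For the members with no called difference, the shares past an r of 0.9 were 0.281% of candidates for Sox17 (led by Olfr1258 and Snrpa), 0.432% for Hnf4a (Kcng1, Mefv and Plekhn1), 1.24% for Gata6 (Banf1, Dnmt3l and Ctps) and 2.21% for Gata4 (Cr2, Slc4a1 and Slc2a2). The leading r for these lay between 0.976 (Hnf4a) and 0.989 (Gata4).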

How the data were processed

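Per the file headers, each array was read with Agilent Feature Extraction 9.1.3.1. The deposited intensity columns are linear: the processed intensity is background-subtracted, and the mean spot intensity and local median background served for the normexp alternative (offset 50). The authors' series table gives, per the file headers, background-subtracted signal normalized to the median in GeneSifter, used as log2(signal + 0.1). Its deposited quality score only matched its 45018 rows to spots.

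Log2 processed intensity minus each array's 75th percentile was analysed. Spots of a probe were averaged without outliers, and the 28104 of 41174 probes well above background on both replicates of any group were kept. A probe counts as well above background when at least 0.5 of its spots are. The brightest kept probe stood for its gene. Names were updated through RefSeq accessions (22951 probes), symbols (6659) or synonyms (3096), and 8468 kept the file's name. A two-sided limma 3.58.1 model (R 4.3.3, eBayes) over all 8 arrays gave the comparisons, with Benjamini-Hochberg adjustment over 19032 genes, or over 28104 probes for single probes. The scripts were tested on simulated data. The number of arrays limits the precision. Deviations of same-numbered arrays correlated between 0.30 and 0.78 in all 6 pairs of groups, and each number is 1 slide per the file headers, so the slide was fitted as a block as an alternative. Other alternatives were normexp, quantile normalization, centring on the median, no filter, the deposited table, only the groups compared, the mean of all kept probes, every probe on its own, and leaving out each array. Named were all members, the top 2 and bottom 2 genes of each list by moderated t, per IP, relative to mock IP (those in the text), and the 3 genes most correlated with each member, of which 1 is not reported here. The members and gene lists were chosen with earlier results of these data known.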

Additional observations from a re-analysis of the deposited data

How the results depend on the processing

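Over 17 alternatives, Afp kept its direction in both IPs against mock IP and against input, and Cxcr4 in both IPs against both controls. The number of members higher in anti-V5 IP than in mock IP, 2, was 0 with normexp, 0 with no filter on dim probes (Sox7 adjusted p = 0.0636, Cxcr4 0.0651), 1 with only the groups compared, and 0 to 2 with each array left out in turn. In anti-GFP IP against mock IP it was 0 with normexp, 1 with only the groups compared and 0 to 2 with an array left out. Cxcr4 ceased to be the 1 higher member against input with normexp (0 in anti-V5 IP and 0 in anti-GFP IP), and 0 to 1 remained with an array left out; the 1 lower member in anti-V5 IP was 0 to 1. With the replicate block 1 member (Afp) was lower in anti-V5 IP, in anti-GFP IP and, against input, in mock IP, where the authors' deposited table also gave 1. The block gave 7376, 7644 and 2595 of 19032 genes lower in these comparisons. Without an array the count of lower members against mock IP was 0 to 1.

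Signs turned as follows. With normexp, Sox17 lay at -0.16 in anti-V5 IP and 0.18 in anti-GFP IP against mock IP, Sox7 at -0.12 in anti-V5 IP against mock IP and -0.68 in anti-V5 IP and -0.028 in anti-GFP IP against input, Gata4 at 0.18 and Hnf4a at 0.20 in anti-GFP IP against mock IP, and Cxcr4 at -0.31 in mock IP against input. In anti-GFP IP against mock IP, quantile normalization, centring on the median and the deposited table gave Sox17 0.082, 0.11 and 0.12, and Hnf4a 0.13, 0.11 and 0.13. The mean of all kept probes gave Gata6 -0.24 in anti-V5 IP and -0.21 in anti-GFP IP, and Hnf4a 0.22 and 0.60. With an array left out, Sox17 ranged from -0.35 to 0.56 in anti-V5 IP and -0.41 to 0.27 in anti-GFP IP, Hnf4a from -1.14 to 0.081 and -0.39 to 0.26, and Gata4 from -0.64 to 0.080 in anti-GFP IP. None of these was called, and the cause was not tested. Genes called lower in anti-V5 IP than in mock IP numbered 4136, 7376 with the block, 411 with only the groups compared and 1049 with no filter. Low signal limits Ttr, Sox7 in mock IP and the second Hnf4a probe.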
